A study of Mus musculus with 14 samples.

Results

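The genes described here carry glucose into the heart muscle cell, break it down to pyruvate, pass it to lactate or carry it to the pyruvate dehydrogenase complex of the mitochondrion. They are a named list of 36 genes among the 24972 of the deposited gene table, chosen by their role in this pathway. No cutoff on measured values was used, but earlier results of these data were known when the list was made. All 36 were above 0 in at least 1 sample, and 35 passed the filter on low values (10 or more in 3 or more samples) and were tested, as were 13212 genes in all. The member that was not tested is Aldoc, an aldolase best known from brain, which read 1.01 to 7.19 in the samples.

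The study asked, per its title, how gene therapy with the N-terminal part of junctophilin-2 affects cardiac hypertrophy and failure. Junctophilin-2 holds the T-tubules of heart muscle cells next to the sarcoplasmic reticulum, and the labels call its N-terminal part JP2NT. Male C57BL/6N mice of 9 to 10 weeks had a sham operation or TAC surgery (transverse aortic constriction), in which a narrowed aortic arch puts a pressure load on the left ventricle. At 2 weeks after surgery, 30 TAC mice with an ejection fraction of 40 to 60% and 10 sham mice with normal function were chosen for injection. Each mouse received an AAV2/9 virus that expresses green fluorescent protein (GFP), the control, or JP2NT, as 1e12 viral genomes in 100 ul into the tail vein. Every group therefore carries a virus and no group is free of one. The promoter that drives the insert is not given in the sources used here. Ventricles were taken 6 weeks after the virus, which is 8 weeks after surgery, and polyadenylated RNA was sequenced as stranded paired-end libraries. The groups are Sham+GFP (n = 3), TAC+GFP (n = 4), Sham+JP2NT (n = 2 after averaging a near-identical pair of its 3 libraries) and TAC+JP2NT (n = 4).

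Glucose enters heart muscle cells through GLUT4, which insulin and contraction bring to the surface, and through the constitutive carrier GLUT1, which prevails in the fetal heart. Glycolysis turns glucose into pyruvate, and phosphofructokinase is its main point of control. The adult heart takes most of its energy from fatty acids. Pyruvate dehydrogenase kinases switch off the entry of pyruvate into oxidation by phosphorylating the E1 part of the complex, and its phosphatases reverse this.

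Values are the deposited scaled gene counts after a joint rescaling of all samples, called normalised values here, and are given in the order of replicates. A value for Sham+JP2NT is first the average of replicates 1 and 2 and then replicate 3. A fold change is a difference of log2(normalised value + 1) with its standard error (SE). Calls rest on limma, with the p-value adjusted by Benjamini-Hochberg over all genes tested and a threshold of 0.05. The libraries held an estimated 8650000 to 14500000 reads. On the first principal component of all genes, with 50.8% of the variance, the sham libraries lay between -41.5 and -34.4 and those of TAC+GFP from 35.2 to 45.8. The first 3 replicates of TAC+JP2NT had scores of 23.4 to 27.4, and its replicate 4 stood apart from them at -2.32. Jph2 itself, whose N-terminus the virus encodes, was not called with JP2NT, with a log2 difference from GFP of -0.18 in sham (adjusted p = 0.998) and 0.043 in TAC hearts (adjusted p = 0.715). The summed value of 10 cardiomyocyte markers was 1304480.0 to 1339250.0 in Sham+GFP, 817040.0 to 951884 in TAC+GFP and 896842 to 1085800.0 in TAC+JP2NT. The sum of 8 fibroblast markers was 13181 to 13333, 20385 to 31994 and 15438 to 23818 in the same order, and that of 6 red blood cell markers was 6878 to 8493, 15963 to 22191 and 7866 to 18776. The sum of 5 atrial markers, which include the overload-responsive peptide gene Nppa, was 4437 to 9814, 43912 to 110913 and 21915 to 45112. Skeletal muscle markers were near 0 in every group, at up to 57.5 for 10 genes together. Of the 10 cardiomyocyte markers, 5 were called lower and 1 higher in TAC+GFP than in Sham+GFP, beside 24.8% and 23.3% of all genes. Of the 8 fibroblast markers 6 were higher and 0 lower, and of 4 tested red blood cell markers 3 were higher and 0 lower. In whole ventricle, fewer cells of a type and less RNA per cell cannot be told apart.

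In overload more members were lower than higher, and the share of higher members was near that of all genes. At the glucose carrier and phosphofructokinase steps isoforms went opposite ways. Between TAC+GFP and Sham+GFP, 9 members were higher and 15 were lower, so that 24 of 35 were called where 48.1% of all genes tested were. The members lower in overload include the muscle isoforms Pfkm, Eno3 and Slc2a4 (GLUT4), the members higher include Slc2a1 (GLUT1), Pfkp and the lactate exporter gene Slc16a3. The share of lower members, 15 of 35, stands beside 24.8% of all genes, and that of higher members, 9 of 35, beside 23.3%. The median log2 fold change was -0.15 over the 35 members and -0.0052 over all genes tested. Values of the groups did not overlap for 26 members, 8 of them higher and 18 lower in overload, where 53.1% of all genes tested had no overlap.

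In TAC hearts, JP2NT was accompanied by lower values of 9 members and higher values of 2. These 11 of 35 stand beside 6.15% of all genes called between TAC+JP2NT and TAC+GFP, with 3.4% of all genes lower and 2.75% higher. The 9 lower were Slc2a1, Hk1, Gpi1, Pfkp, Pfkl, Pgk1, Eno1, Ldha and Slc16a3, and the 2 higher were Slc2a4 and Pdp2. The median log2 fold change was -0.12 over the members and 0.00059 over all genes. Values did not overlap for 15 members, 4 higher and 11 lower with JP2NT, where 10.7% of all genes tested had no overlap. The scaling bore on this split. With the values as deposited, 1 member was higher and 13 were lower, and over all genes 226 were higher and 1191 lower against 363 and 449 after the joint rescaling. The count also depended on the fit. With the TAC groups alone in the fit, and also with TAC replicates 1 and 2 averaged, 4 members were called, namely Slc2a1, Hk1, Eno1 and Slc16a3. These 4 were called under all 23 alternative settings tried, these included. Leaving out single libraries gave 6 to 15 called members, with 6 without TAC+GFP replicate 2 and 15 without TAC+JP2NT replicate 3.

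Side by side, 3 members (Slc2a1, Pfkp and Slc16a3) rose from Sham+GFP to TAC+GFP and read lower with JP2NT than with GFP in TAC hearts, and 2 went the other way in both comparisons (Slc2a4 and Pdp2). Pfkl and Eno1 were lower in both, and Hk1, Gpi1, Pgk1 and Ldha were called with JP2NT and not in overload. Of the other members, 6 were called higher and 11 lower in overload without a call for JP2NT, and 7 were called in neither. Both comparisons use the same 4 TAC+GFP libraries, so a value that is high or low there moves both in opposite directions.

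**Figure D1:**
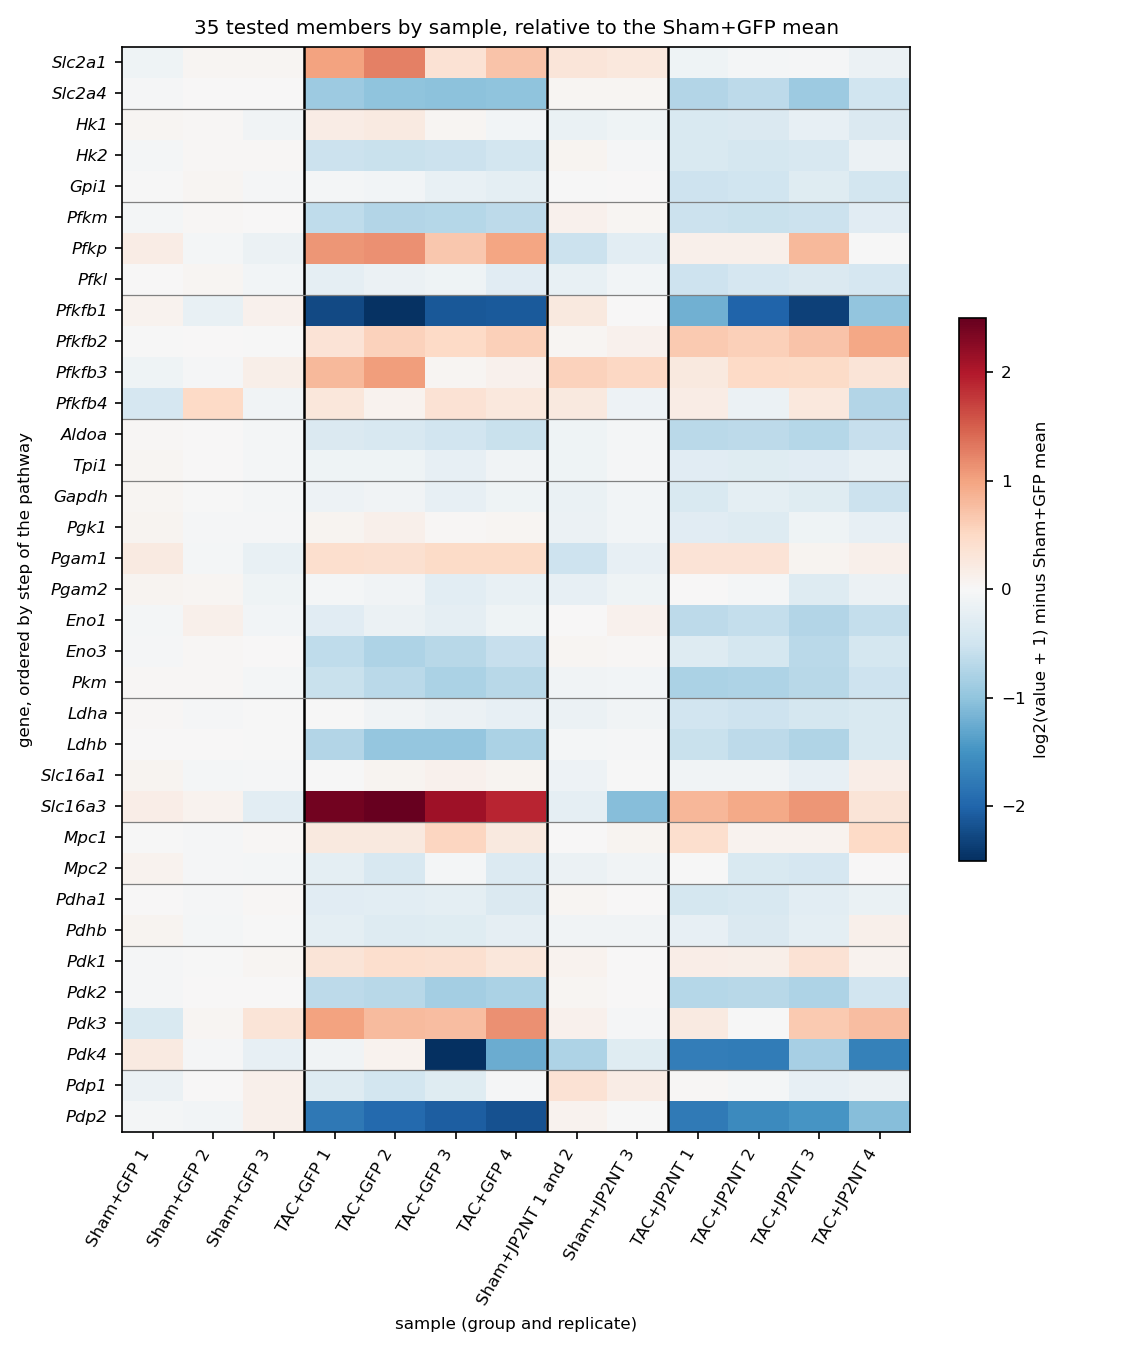
Heat map of the 35 tested members (rows, in pathway order) in the 13 samples (columns, by group), as the difference of log2(normalised value + 1) from the Sham+GFP mean. Red is higher and blue lower, and the colour scale is capped at its ends. Slc16a3 is darkest red and Pfkfb1 and Pdp2 are dark blue in TAC+GFP, while the Slc2a1 row is pale again in TAC+JP2NT.

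**Figure D2:**
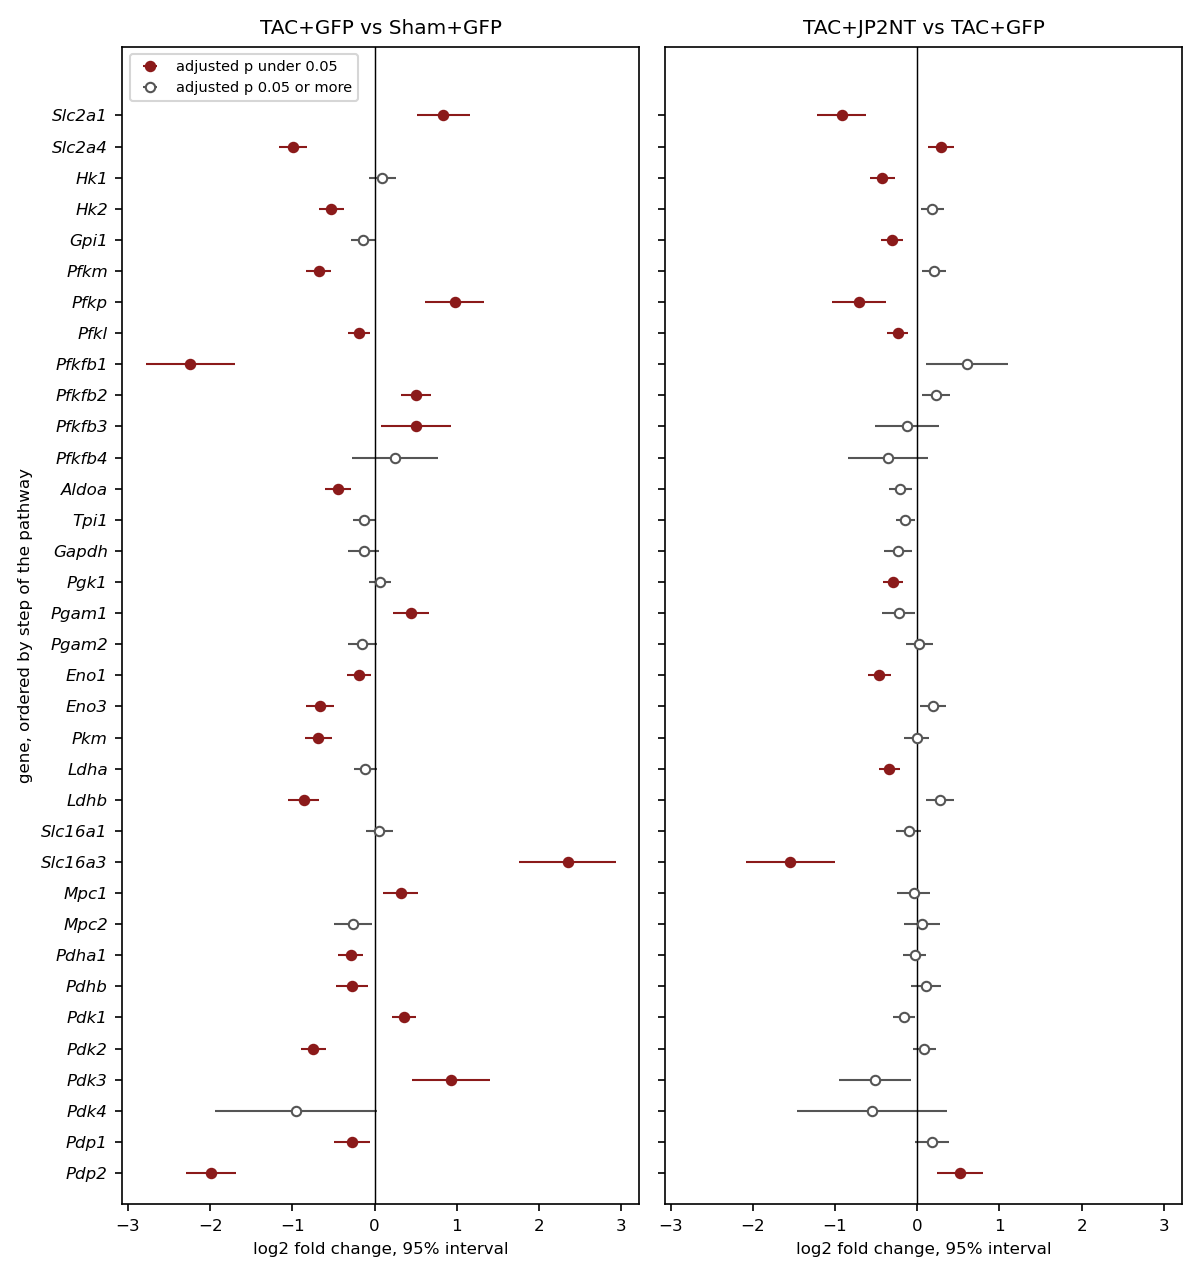
Log2 fold change (x axis) of each tested member (y axis) with its 95% interval from limma, for TAC+GFP against Sham+GFP (left) and TAC+JP2NT against TAC+GFP (right). Filled points mark the 24 and 11 members called at an adjusted p under 0.05, and open points the others.

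Promoters of 6 members are shown because 4 of these genes, Slc2a1, Slc16a3, Ldha and Eno1, were lower with JP2NT in TAC hearts, while Ldhb and Eno3, the partners of Ldha and Eno1, were not called. Of the 36 members, 34 matched the promoter table taken from RefSeq on GRCm38.p6; Slc2a4 and Pdp1 did not. The letters ACGTG and GCGTG, the cores of the element that hypoxia-inducible factors bind, were searched on both strands in the 250 bases before each start site, and overlapping matches were counted separately. ACGTG is also part of CACGTG, the E-box that MYC and carbohydrate response factors bind, which counts as 1 match on each strand. ACGTG was in the windows of 16 of 34 member genes and 18.5% of all genes, and GCGTG in those of 24 of 34 and 30.9%. Either core was found for 31 of 34 members and 41.5% of all genes in the table. These shares count a gene if any of its windows matched, and some genes had several windows. Per window, either core was in 75.9% of 54 member windows and 38.6% of all 32851, and ACGTG in 37% and 16.6%. Member promoters also had a higher GC content, with a median of 60.6% and 13.5 CG pairs against 52.4% and 6 over all promoters, and the part of base composition in the match count was not tested. Of the 9 members lower with JP2NT in TAC hearts 8 held a core, as did 21 of 23 matched members that were not called, a share of similar size. Each sequence runs 5′ to 3′ on the gene's strand and ends just before the start site, except that of Slc2a1, and capitals mark the cores. The Slc2a1 sequence stops where an annotated exon begins, 34 bases before the end of its window, and the ACGTG of that window lies across this end and is not marked.
Slc2a1 promoter, chr4:119108495-119108710, plus strand, first 216 bases of its window, with its match to GCGTG: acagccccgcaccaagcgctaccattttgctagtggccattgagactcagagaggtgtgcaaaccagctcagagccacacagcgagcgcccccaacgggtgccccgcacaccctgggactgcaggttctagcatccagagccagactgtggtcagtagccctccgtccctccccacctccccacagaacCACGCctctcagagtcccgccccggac
Slc16a3 promoter, chr11:120948817-120949066, plus strand, 2 matches to ACGTG: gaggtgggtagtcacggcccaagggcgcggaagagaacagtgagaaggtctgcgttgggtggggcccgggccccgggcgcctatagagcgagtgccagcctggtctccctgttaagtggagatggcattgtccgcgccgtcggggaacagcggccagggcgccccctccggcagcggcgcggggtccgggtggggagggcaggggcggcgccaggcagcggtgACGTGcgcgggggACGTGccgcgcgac
Ldha promoter, chr7:46845554-46845803, plus strand, 5 matches to ACGTG, from 2 CACGTG sites and 1 further match: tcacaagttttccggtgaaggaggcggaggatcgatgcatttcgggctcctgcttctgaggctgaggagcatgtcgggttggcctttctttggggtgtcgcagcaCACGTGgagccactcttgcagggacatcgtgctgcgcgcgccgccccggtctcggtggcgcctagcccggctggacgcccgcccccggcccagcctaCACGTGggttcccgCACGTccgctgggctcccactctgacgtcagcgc
Ldhb promoter, chr6:142507958-142508207, minus strand, 1 match to GCGTG: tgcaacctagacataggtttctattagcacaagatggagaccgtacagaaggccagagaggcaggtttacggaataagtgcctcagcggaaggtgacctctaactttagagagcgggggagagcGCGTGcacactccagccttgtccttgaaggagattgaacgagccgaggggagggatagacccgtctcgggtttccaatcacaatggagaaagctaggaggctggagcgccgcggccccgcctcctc
Eno1 promoter, chr4:150236458-150236707, plus strand, 1 match to GCGTG: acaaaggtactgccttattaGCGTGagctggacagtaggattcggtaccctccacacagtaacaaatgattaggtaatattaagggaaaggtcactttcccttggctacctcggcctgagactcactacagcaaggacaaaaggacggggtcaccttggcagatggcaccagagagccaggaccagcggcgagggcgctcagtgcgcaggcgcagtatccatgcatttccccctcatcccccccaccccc
Eno3 promoter, chr11:70656926-70657175, plus strand, 1 match to GCGTG: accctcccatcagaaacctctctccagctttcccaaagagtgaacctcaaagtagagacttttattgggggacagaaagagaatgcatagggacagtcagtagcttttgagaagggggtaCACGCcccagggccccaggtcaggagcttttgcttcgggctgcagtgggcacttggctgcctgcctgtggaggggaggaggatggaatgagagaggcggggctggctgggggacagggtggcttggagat

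In the windows shown, Slc16a3 and Ldha, both lower with JP2NT, hold ACGTG, and Ldhb and Eno3, not called in that comparison, hold a single GCGTG. Where a gene had several windows, the one shown had no annotated exon bases and the most matches. A further window of Ldha holds a single GCGTG and no ACGTG. Among the other members lower with JP2NT, Pgk1 held ACGTG, and Hk1, Gpi1, Pfkp and Pfkl did not. Some members that were not called, among them Hk2, Aldoa and Pkm, held ACGTG as well. Slc2a1, which was called, holds both cores in its whole window, and Eno1, also called, holds only GCGTG. A match is a run of letters and not a bound site.

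The glucose carriers moved in opposite directions. Slc2a1 encodes GLUT1 (chromosome 4, 119108711 to 119137983, plus strand, GRCm38). It read 229.7, 258 and 257 in Sham+GFP, 498, 595, 318 and 408 in TAC+GFP, 308 and 299.6 in Sham+JP2NT and 231, 241, 241 and 224 in TAC+JP2NT. All 4 TAC+GFP samples lay above every other sample, and the TAC+JP2NT samples lay within or just below the Sham+GFP range. Its log2 fold change was 0.83 ± 0.15, adjusted p = 0.000423 for overload under GFP and -0.92 ± 0.14, adjusted p = 0.00318 for JP2NT in TAC hearts, a 1.89-fold lower level. Slc2a4 encodes GLUT4, the insulin-regulated carrier (chromosome 11, 69942539 to 69948188, minus strand). It read 7486, 7735 and 7756 in Sham+GFP, 4071, 3806, 3754 and 3805 in TAC+GFP, 7916 and 7941 in Sham+JP2NT and 4624, 4852, 4060.2 and 5440.4 in TAC+JP2NT. Every TAC sample lay below every sham sample, and TAC+GFP replicate 1 lay within the TAC+JP2NT range. Overload under GFP lowered it by a log2 difference of -0.99 ± 0.080, adjusted p = 5.45e-07. With JP2NT in TAC hearts it was higher by 0.29 ± 0.074, adjusted p = 0.0324. That last call was lost when any 1 of 11 libraries was left out (log2 0.22 to 0.31, adjusted p = 0.0515 to 0.0981). It held only without either of the averaged Sham+JP2NT libraries or without TAC+JP2NT replicate 3. Red blood cell and fibroblast marker sums were higher and the cardiomyocyte marker sum lower in TAC+GFP than in Sham+GFP, as given above. Their part in the carrier changes was not tested.

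Hexokinases trap glucose in the cell as its phosphate. Hk1 is the isoform of most tissues and Hk2 that of insulin-sensitive muscle. Hk1 (chromosome 10, 62268855 to 62379908, minus strand) read 2968, 2941 and 2704 in Sham+GFP, 3241, 3369, 2975 and 2718 in TAC+GFP, 2565 and 2648 in Sham+JP2NT and 2194, 2237, 2481 and 2242 in TAC+JP2NT. It was not called between TAC+GFP and Sham+GFP (0.096 ± 0.076, adjusted p = 0.314), and the TAC+JP2NT samples lay below all Sham+GFP and TAC+GFP samples (-0.42 ± 0.070, adjusted p = 0.00442). Hk2 read 4449, 4732 and 4725 in Sham+GFP, 3173, 3139, 3181 and 3373 in TAC+GFP, 4855 and 4529.9 in Sham+JP2NT and 3554, 3405, 3499 and 4198 in TAC+JP2NT. It fell in overload under GFP with a log2 fold change of -0.53 ± 0.072, adjusted p = 4.01e-05, and every TAC+GFP sample was below every sham sample. With JP2NT in TAC hearts the difference of Hk2 was 0.18 ± 0.066, adjusted p = 0.112 and not called. Gpi1, which turns glucose 6-phosphate into fructose 6-phosphate, read 9628, 10018 and 9466 in Sham+GFP, 9329.8, 9308, 8545 and 8176 in TAC+GFP, 9651 and 9759 in Sham+JP2NT and 6777, 6901, 7817 and 7094 in TAC+JP2NT. Its differences were -0.14 ± 0.069, adjusted p = 0.114 for overload and -0.31 ± 0.064, adjusted p = 0.0132 for JP2NT in TAC hearts. The second was not called without TAC+GFP replicate 2 (-0.28, adjusted p = 0.0565).

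Phosphofructokinase commits sugar to glycolysis. Its muscle isoform Pfkm fell and its platelet isoform Pfkp rose with overload. Pfkm (chromosome 15, 98092589 to 98132451, plus strand) read 15796, 16631 and 16299.8 in Sham+GFP, 10456, 9827, 9932 and 10322 in TAC+GFP, 17461 and 16859 in Sham+JP2NT and 11116, 11072, 11162 and 13391 in TAC+JP2NT. TAC+GFP lay wholly below Sham+GFP (-0.68 ± 0.073, adjusted p = 5.55e-06). In TAC+JP2NT, 3 samples lay close together just above TAC+GFP and replicate 4 was higher, and the difference was not called (0.20 ± 0.067, adjusted p = 0.0884). Pfkp (chromosome 13, 6579768 to 6648777, minus strand) read 1113, 937 and 883 in Sham+GFP, 2091, 2155, 1543 and 1929 in TAC+GFP, 668 and 808 in Sham+JP2NT and 1061, 1063, 1707 and 969.6 in TAC+JP2NT. It was 1.97-fold higher in TAC+GFP than in Sham+GFP without overlap (0.98 ± 0.17, adjusted p = 0.000275). TAC+JP2NT replicate 3 lay within the TAC+GFP range and the other 3 lay below it (-0.71 ± 0.16, adjusted p = 0.0171). This second call was lost without TAC+GFP replicate 1 (-0.67, adjusted p = 0.0531) and TAC+GFP replicate 2 (-0.66, adjusted p = 0.0627). Exons of Pfkp overlap those of Pitrm1 on the opposite strand over 748 bases, and whether the counting used strand is not given in the sources used here. Pitrm1 itself differed by -0.10 and -0.049 in the same comparisons, neither called. The liver isoform Pfkl read 2292, 2378 and 2186 in Sham+GFP, 1960.0, 2077, 2115 and 1886 in TAC+GFP, 2001 and 2192 in Sham+JP2NT and 1603, 1706, 1787 and 1714 in TAC+JP2NT. It was slightly lower in overload (-0.19 ± 0.064, adjusted p = 0.0255) and lower again with JP2NT (-0.24 ± 0.059, adjusted p = 0.0289). The overload call of Pfkl was lost without Sham+GFP replicate 1 (-0.19, adjusted p = 0.0618), Sham+GFP replicate 2 (-0.16, adjusted p = 0.106), TAC+GFP replicate 1 (-0.18, adjusted p = 0.0534) and TAC+GFP replicate 4 (-0.16, adjusted p = 0.0621). Its JP2NT call was lost without TAC+GFP replicate 1 (-0.25, adjusted p = 0.0599), TAC+GFP replicate 2 (-0.22, adjusted p = 0.0938), TAC+GFP replicate 3 (-0.21, adjusted p = 0.0527), TAC+JP2NT replicate 1 (-0.21, adjusted p = 0.0725) and TAC+JP2NT replicate 2 (-0.24, adjusted p = 0.0638).

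The PFKFB enzymes make and remove the small sugar phosphate that is the main activator of phosphofructokinase. Pfkfb1, the liver and muscle isoform (chromosome X, 150588229 to 150643878, plus strand), had the largest fall of all tested members in overload. It read 220.3, 182 and 224 in Sham+GFP, 42.6, 36.9, 46.9 and 47.5 in TAC+GFP, 246 and 209.6 in Sham+JP2NT and 89.7, 51.1, 40.5 and 104 in TAC+JP2NT. Sham+GFP exceeded TAC+GFP 4.72-fold (-2.24 ± 0.25, adjusted p = 8.82e-06). TAC+JP2NT replicates 1, 2 and 4 lay above the TAC+GFP samples and replicate 3 lay within their range. The difference with JP2NT was 0.61 ± 0.23, adjusted p = 0.134, and it was called without TAC+JP2NT replicate 3 (0.84, adjusted p = 0.0246). The heart isoform Pfkfb2 read 651, 659 and 651 in Sham+GFP, 832, 982, 926 and 986 in TAC+GFP, 677 and 703 in Sham+JP2NT and 1036, 990.1, 1079 and 1285 in TAC+JP2NT. Its values rose in overload (0.51 ± 0.086, adjusted p = 0.000254), without overlap between TAC+GFP and Sham+GFP. In TAC hearts the JP2NT difference was 0.23 ± 0.080, adjusted p = 0.0952 and not called. Exons of Yod1 overlap Pfkfb2 on the opposite strand, and Yod1 rose by 1.88 (adjusted p = 0.00226); its part in the Pfkfb2 value was not tested. Pfkfb3, the inducible isoform, read 115, 122 and 138 in Sham+GFP, 219.9, 259.7, 129 and 135 in TAC+GFP, 186 and 179 in Sham+JP2NT and 147, 176, 175 and 157 in TAC+JP2NT. TAC+GFP replicates 1 and 2 were high and replicates 3 and 4 lay in the sham range. Its overload call (0.51 ± 0.20, adjusted p = 0.0473) was lost when any 1 of 12 libraries was left out, all but TAC+GFP replicates 3 and 4, with log2 0.32 to 0.57 and adjusted p = 0.0501 to 0.150. Pfkfb4 ranged from 30.9 to 74.0 over all samples and was called in no comparison.

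Aldolase splits the sugar and triose phosphate isomerase evens out the products. Aldoa, the muscle aldolase, read 49212, 48604 and 46447 in Sham+GFP, 37219.7, 36407, 34624 and 32793 in TAC+GFP, 44508 and 46463 in Sham+JP2NT and 30174, 30639, 29305 and 32314 in TAC+JP2NT. Overload under GFP lowered it without overlap (-0.45 ± 0.073, adjusted p = 0.000185), and the JP2NT difference was -0.20 ± 0.068, adjusted p = 0.0881, not called. Tpi1 ranged from 11864 to 15039.5 over all samples. Its difference was -0.13 ± 0.061, adjusted p = 0.101 in overload and -0.14 ± 0.056, adjusted p = 0.144 with JP2NT, neither called.

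In the second stage of glycolysis, which yields ATP, 1 member rose and 3 fell in overload. Gapdh ranged from 43444 to 65505 over all samples and was called in neither main comparison (-0.13 ± 0.086, adjusted p = 0.215, and -0.23 ± 0.080, adjusted p = 0.0995). Pgk1 encodes phosphoglycerate kinase, the first step that makes ATP. It read 7730.5, 7205 and 7284 in Sham+GFP, 7728, 8109, 7550.2 and 7684 in TAC+GFP, 6719 and 7070.5 in Sham+JP2NT and 6119, 5899, 6907 and 6447 in TAC+JP2NT. The overload difference was 0.069 ± 0.064, adjusted p = 0.397, and the JP2NT difference was -0.29 ± 0.060, adjusted p = 0.0115, with TAC+JP2NT below TAC+GFP in all 4 samples. Pgam1, the mutase isoform of brain and most tissues, read 1437, 1181 and 1081 in Sham+GFP, 1631, 1607, 1704 and 1709 in TAC+GFP, 859.5 and 1068 in Sham+JP2NT and 1545, 1547, 1278 and 1339 in TAC+JP2NT. It rose in overload (0.44 ± 0.10, adjusted p = 0.00256) and the JP2NT difference was -0.22 ± 0.095, adjusted p = 0.170, not called. Its muscle counterpart Pgam2 read 8865, 8728 and 7910.4 in Sham+GFP, 8155, 7959, 7028 and 7502 in TAC+GFP, 7316 and 7907 in Sham+JP2NT and 8580.1, 8195, 6808 and 7707 in TAC+JP2NT, with differences of -0.15 ± 0.083, adjusted p = 0.149 and 0.027 ± 0.077, adjusted p = 0.875, neither called. Enolase has a widespread isoform, Eno1, and a muscle isoform, Eno3. Eno1 (chromosome 4, 150236721 to 150248879, plus strand) read 2262, 2569 and 2228 in Sham+GFP, 1924, 2115, 2016 and 2174 in TAC+GFP, 2375 and 2513 in Sham+JP2NT and 1482, 1543, 1407 and 1553 in TAC+JP2NT. The TAC+JP2NT samples were the 4 lowest of all (-0.46 ± 0.063, adjusted p = 0.00163). The overload difference of Eno1 was -0.19 ± 0.068, adjusted p = 0.0298, and it was not called without Sham+GFP replicate 2 (-0.13, adjusted p = 0.168), TAC+GFP replicate 1 (-0.17, adjusted p = 0.0769) and TAC+GFP replicate 3 (-0.18, adjusted p = 0.0541). Reads of Eno1 can be split with its near-identical copy Eno1b, which read 474 to 1131. With both summed, the overload difference was -0.079 (adjusted p = 0.355) and the JP2NT difference was -0.34 (adjusted p = 0.00746), so the overload call of Eno1 is uncertain. Eno3 (chromosome 11, 70657202 to 70662513, plus strand) read 25596, 26372 and 26088 in Sham+GFP, 16836, 15293, 16171 and 17531 in TAC+GFP, 26804 and 26465 in Sham+JP2NT and 20716, 19058, 16417 and 19174 in TAC+JP2NT. All TAC+GFP samples were below all sham samples (-0.66 ± 0.080, adjusted p = 1.49e-05). TAC+JP2NT replicate 3 was among the TAC+GFP samples, and the JP2NT difference was not called (0.19 ± 0.074, adjusted p = 0.134) except without TAC+JP2NT replicate 3 (0.25, adjusted p = 0.0319). Pkm, a pyruvate kinase gene whose transcripts are counted together here, read 23323, 23309 and 22342 in Sham+GFP, 15594, 14396, 13219 and 14175 in TAC+GFP, 21579 and 22016 in Sham+JP2NT and 13369, 13437, 14254 and 16109 in TAC+JP2NT. It fell in overload (-0.68 ± 0.078, adjusted p = 9.81e-06) and was not called with JP2NT in TAC hearts, with a difference of -0.0070 and a 95% interval of -0.16 to 0.15.

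Lactate dehydrogenase exchanges pyruvate and lactate. Ldha, rich in skeletal muscle and glycolytic tissue, read 13152, 12619 and 12808 in Sham+GFP, 12829, 12019, 11547 and 11221 in TAC+GFP, 11570.4 and 12048 in Sham+JP2NT and 9176, 8942, 9496 and 9925 in TAC+JP2NT. Overload gave -0.11 ± 0.064, adjusted p = 0.162, not called. With JP2NT in TAC hearts it fell by 0.34 on the log2 scale, from 11904 ± 698 to 9385 ± 426 (mean ± SD, n = 4 each), and the adjusted p was 0.00597 in limma. Ldhb, the heart isoform (chromosome 6, 142490249 to 142507957, minus strand), read 25529.6, 25334 and 25032 in Sham+GFP, 15298, 12894, 13023 and 14648 in TAC+GFP, 24490.3 and 24760.0 in Sham+JP2NT and 17101, 16177, 15082 and 19457 in TAC+JP2NT. It fell in overload under GFP (-0.86 ± 0.088, adjusted p = 3.74e-06). Its JP2NT difference was 0.28 ± 0.082, adjusted p = 0.0588, not called, and it was called without TAC+JP2NT replicate 3 (0.33, adjusted p = 0.0260). Slc16a3 encodes MCT4, the lactate exporter of glycolytic cells (chromosome 11, 120948480 to 120960868, plus strand), and had the largest rise of the members in overload. It read 23.1, 21.7 and 16.9 in Sham+GFP, 113, 166, 92.4 and 78.8 in TAC+GFP, 17.4 and 9.26 in Sham+JP2NT and 37.2, 40.4, 45.2 and 25.9 in TAC+JP2NT. No TAC+GFP sample fell below 78.8, and no other sample exceeded 45.2. Overload raised it 5.09-fold (2.35 ± 0.28, adjusted p = 1.17e-05), and with JP2NT it was 2.91-fold lower in TAC hearts (-1.54 ± 0.25, adjusted p = 0.00442). These are low values, so the log2(value + 1) scale understates the fold. Slc16a1, which encodes the widespread lactate carrier MCT1, ranged from 3154 to 4085 and was called in neither comparison (0.057 ± 0.077, adjusted p = 0.569, and -0.11 ± 0.072, adjusted p = 0.418). Fibroblast and red blood cell marker sums were also higher in TAC+GFP than in Sham+GFP, and their part in the Slc16a3 value was not tested.

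**Figure D3:**
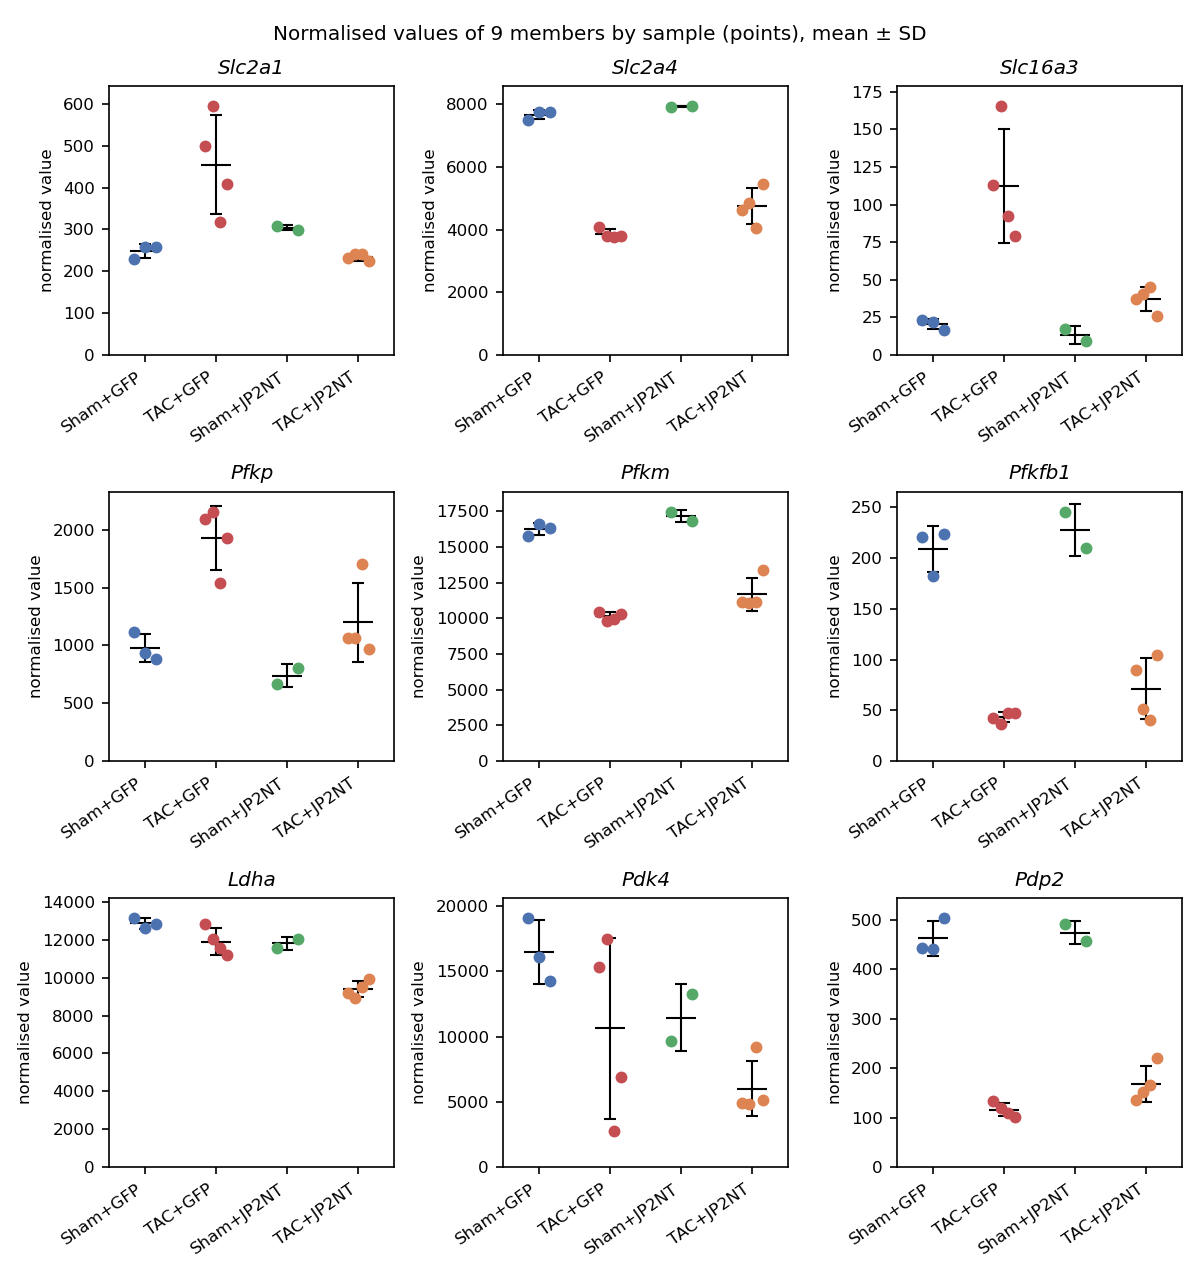
Normalised values (y axes, linear, from 0) of 9 members in each sample (points), by group (x axes), with the mean and SD as bars. Slc2a1, Slc16a3 and Pfkp are high in TAC+GFP, Slc2a4, Pfkm, Pfkfb1 and Pdp2 are low in both TAC groups, Ldha is lowest in TAC+JP2NT, and Pdk4 spreads widely within TAC+GFP.

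The mitochondrial pyruvate carrier is a pair of Mpc1 and Mpc2. Mpc1 read 4831, 4779 and 4965 in Sham+GFP, 5761, 5759.6, 7014 and 5768 in TAC+GFP, 4866 and 5066 in Sham+JP2NT and 6486, 5173, 5169 and 6869.7 in TAC+JP2NT. It was higher in overload (0.32 ± 0.10, adjusted p = 0.0183), with TAC+GFP replicate 3 far above the other 3. This call was lost without Sham+GFP replicate 1 (0.31, adjusted p = 0.0591), Sham+GFP replicate 2 (0.30, adjusted p = 0.0639) and TAC+GFP replicate 3 (0.25, adjusted p = 0.0510). Mpc2 ranged from 2446 to 3493. Its overload difference was -0.26 ± 0.11, adjusted p = 0.0635, and it was called without TAC+GFP replicate 3 (-0.33, adjusted p = 0.0237), TAC+JP2NT replicate 3 (-0.26, adjusted p = 0.0420) and TAC+JP2NT replicate 4 (-0.26, adjusted p = 0.0375). With JP2NT in TAC hearts, Mpc1 differed by -0.043 (95% interval -0.24 to 0.16) and Mpc2 by 0.061 (-0.16 to 0.28), neither called. Both E1 subunits of pyruvate dehydrogenase fell in overload. Pdha1, the alpha subunit that the kinases phosphorylate, read 14804, 14378 and 15087 in Sham+GFP, 12141, 12349, 12467 and 11430.1 in TAC+GFP, 15196 and 14806 in Sham+JP2NT and 10908, 11176, 12311 and 13130.3 in TAC+JP2NT (-0.29 ± 0.071, adjusted p = 0.00414). Pdhb, the beta subunit, read 9099, 8459 and 8621 in Sham+GFP, 7315, 6969, 7043 and 7506 in TAC+GFP, 8206 and 8218 in Sham+JP2NT and 7561, 6826, 7345 and 9533 in TAC+JP2NT (-0.28 ± 0.090, adjusted p = 0.0204). TAC+GFP lay below Sham+GFP in every sample for both genes. The call of Pdhb was lost without Sham+GFP replicate 1 (-0.25, adjusted p = 0.0761). Neither was called with JP2NT in TAC hearts (-0.029, with a 95% interval of -0.17 to 0.11, and 0.11, -0.073 to 0.28).

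The 4 kinases of the complex did not move together. Pdk1, a known hypoxia-inducible gene, read 2399, 2422 and 2542 in Sham+GFP, 3082, 3293, 3217 and 2993 in TAC+GFP, 2617 and 2465 in Sham+JP2NT and 2735, 2725, 3159.9 and 2623 in TAC+JP2NT. It rose in overload (0.36 ± 0.068, adjusted p = 0.000615), and its JP2NT difference of -0.17 ± 0.063, adjusted p = 0.130 was called without TAC+JP2NT replicate 3 (-0.23, adjusted p = 0.0277). Pdk2, the most widely expressed kinase, read 7004, 7197 and 7183 in Sham+GFP, 4532, 4398, 3974 and 4134 in TAC+GFP, 7388 and 7129 in Sham+JP2NT and 4355, 4430.0, 4196 and 5119.8 in TAC+JP2NT. Every TAC+GFP sample lay below every sham sample (-0.74 ± 0.072, adjusted p = 2.39e-06), and the JP2NT difference was 0.085 ± 0.066, adjusted p = 0.497, not called. Pdk3, a low-abundance isoform, read 20.7, 27.9 and 34.3 in Sham+GFP, 55.4, 47.7, 46.7 and 60.9 in TAC+GFP, 29.1 and 26.6 in Sham+JP2NT and 32.0, 27.0, 43.4 and 47.1 in TAC+JP2NT. It was 1.90-fold higher in overload (0.93 ± 0.22, adjusted p = 0.00332), and its JP2NT difference was -0.51 ± 0.21, adjusted p = 0.154, not called. Pdk4, induced by fatty acids and fasting, read 19094, 16121 and 14267 in Sham+GFP, 15316, 17508, 2751 and 6909 in TAC+GFP, 9631 and 13284 in Sham+JP2NT and 4915, 4844, 9186 and 5099 in TAC+JP2NT. TAC+GFP replicates 1 and 2 lay in the sham range and replicates 3 and 4 far below it, so the group spanned 2751 to 17508. The overload difference of Pdk4 was -0.95 ± 0.46, adjusted p = 0.102, not called. It was called without TAC+GFP replicate 1 (-1.25, adjusted p = 0.0432) and TAC+GFP replicate 2 (-1.31, adjusted p = 0.0265), and was -0.41 without TAC+GFP replicate 3. Its JP2NT difference was -0.55 ± 0.43, adjusted p = 0.497, not called, and it was called without TAC+GFP replicate 3 (-1.09, adjusted p = 0.0363). At this spread neither a rise nor a fall could be told from the variation within TAC+GFP.

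The phosphatases that switch the complex on were lower in overload. Pdp2 (chromosome 8, 104591451 to 104599026, plus strand) read 443, 440.3 and 504 in Sham+GFP, 134, 119, 110.1 and 102 in TAC+GFP, 491 and 457 in Sham+JP2NT and 135, 153, 166 and 220.0 in TAC+JP2NT. Sham+GFP exceeded TAC+GFP 3.97-fold without overlap (-1.99 ± 0.14, adjusted p = 2.12e-07). In TAC hearts Pdp2 was higher with JP2NT (0.52 ± 0.13, adjusted p = 0.0324), at 168 ± 36.7 against 116 ± 13.7 (mean ± SD), and still below every sham sample. This JP2NT call was lost without Sham+GFP replicate 2 (0.51, adjusted p = 0.0520), TAC+GFP replicate 2 (0.53, adjusted p = 0.0785), TAC+GFP replicate 3 (0.49, adjusted p = 0.0539), TAC+GFP replicate 4 (0.45, adjusted p = 0.0602), TAC+JP2NT replicate 2 (0.55, adjusted p = 0.0502) and TAC+JP2NT replicate 4 (0.38, adjusted p = 0.0553). Pdp1, the calcium-stimulated phosphatase, read 468, 523 and 569.5 in Sham+GFP, 416, 378, 419.9 and 510.2 in TAC+GFP, 666 and 589 in Sham+JP2NT and 528, 499, 449 and 469.6 in TAC+JP2NT. Its overload difference of -0.27 ± 0.10, adjusted p = 0.0380 was not called without Sham+GFP replicate 2 (-0.27, adjusted p = 0.0920), Sham+GFP replicate 3 (-0.21, adjusted p = 0.153), TAC+GFP replicate 1 (-0.27, adjusted p = 0.0701), TAC+GFP replicate 2 (-0.22, adjusted p = 0.1005) and TAC+GFP replicate 3 (-0.27, adjusted p = 0.0669). The JP2NT difference was 0.18 ± 0.095, adjusted p = 0.284, not called.

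The balance of isoforms shifted in overloaded hearts with GFP, and it differed again with JP2NT. Each log2 ratio here is a difference of log2(normalised value + 1) between the genes of a pair within a sample, so the scaling of samples to each other enters it only through the added 1. It does not say which of its genes moved. Cardiomyocyte marker sums were lower and fibroblast marker sums higher in TAC+GFP than in Sham+GFP, as given above, and their part in the ratios was not tested. The log2 ratio of Slc2a1 to Slc2a4 was -5.02, -4.90 and -4.91 in Sham+GFP, -3.03, -2.68, -3.56 and -3.22 in TAC+GFP, -4.68 and -4.72 in Sham+JP2NT and -4.32, -4.33, -4.07 and -4.60 in TAC+JP2NT. The mean difference was 1.82 between TAC+GFP and Sham+GFP, and -1.21 between TAC+JP2NT and TAC+GFP. By these ratios, Slc2a1 as a share of Slc2a4 went from 3.25% in Sham+GFP to 11.5% in TAC+GFP and was 4.98% in TAC+JP2NT. For Pfkp to Pfkm the log2 ratio was -3.83, -4.15 and -4.21 in Sham+GFP, -2.32, -2.19, -2.69 and -2.42 in TAC+GFP, -4.71 and -4.38 in Sham+JP2NT and -3.39, -3.38, -2.71 and -3.79 in TAC+JP2NT. Its differences were 1.66 and -0.91, and TAC+JP2NT replicate 3 lay just below the lowest TAC+GFP sample. For Eno1 to Eno3 it was -3.50, -3.36 and -3.55 in Sham+GFP, -3.13, -2.85, -3.00 and -3.01 in TAC+GFP, -3.50 and -3.40 in Sham+JP2NT and -3.80, -3.63, -3.54 and -3.63 in TAC+JP2NT. The differences were 0.47 and -0.65. In the Eno1 and Eno3 pair, both genes were lower in TAC+GFP than in Sham+GFP, and the ratio rose with the larger fall of Eno3; the overload call of Eno1 is uncertain, as given above.

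The 3 further pairs had the same signs. Hk1 to Hk2 differed by 0.62 in overload and -0.61 with JP2NT in TAC hearts, Pgam1 to Pgam2 by 0.59 and -0.25, and Ldha to Ldhb by 0.75 and -0.62. For each of the 6 pairs the groups did not overlap in either comparison. Among single genes tested, 53.1% had no overlap in overload and 10.7% with JP2NT in TAC hearts. The share among ratios of other gene pairs was not computed, so the lack of overlap is not shown to be particular to isoform pairs. Each exact two-sided permutation test gave p = 0.0286, the smallest p these group sizes allow, and 0.0286 after Benjamini-Hochberg adjustment over the 12 tests. This p restates the lack of overlap and adds no further evidence. All 12 share the 4 TAC+GFP samples. Between TAC+JP2NT and Sham+JP2NT, where the group sizes do not allow a p under 0.05, the mean differences were 0.37 for Slc2a1 to Slc2a4, 1.23 for Pfkp to Pfkm, -0.20 for Eno1 to Eno3, 0.17 for Hk1 to Hk2, 0.53 for Pgam1 to Pgam2 and 0.21 for Ldha to Ldhb. Between Sham+JP2NT and Sham+GFP they were 0.24, -0.48, 0.023, -0.16, -0.19 and -0.084 in the same order. Levels of different genes can be compared per kilobase of exon. In Sham+GFP, the normalised value per kilobase was 2729 ± 53.5 for Slc2a4 and 76.2 ± 4.96 for Slc2a1, 5416 ± 140.2 for Pfkm and 227 ± 27.9 for Pfkp, and 16615 ± 251 for Eno3 and 924 ± 73.8 for Eno1 (mean ± SD, n = 3). In TAC+GFP they were 1375 ± 51.0 and 139.5 ± 36.4, 3379 ± 101 and 449 ± 63.9, and 10509.6 ± 609.5 and 808 ± 43.3 (n = 4). In these 3 pairs the muscle isoform kept the higher level per kilobase. For Hk2 and Hk1 the order of the means reversed, from 826 ± 28.7 and 592 ± 30.0 in Sham+GFP to 573 ± 18.9 and 634 ± 59.7 in TAC+GFP. The highest members per kilobase in Sham+GFP were Gapdh at 42185 ± 1551, Aldoa at 26364 ± 797 and Ldhb at 19401 ± 192, and the lowest tested was Slc16a3 at 4.63 ± 0.736.

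**Figure D4:**
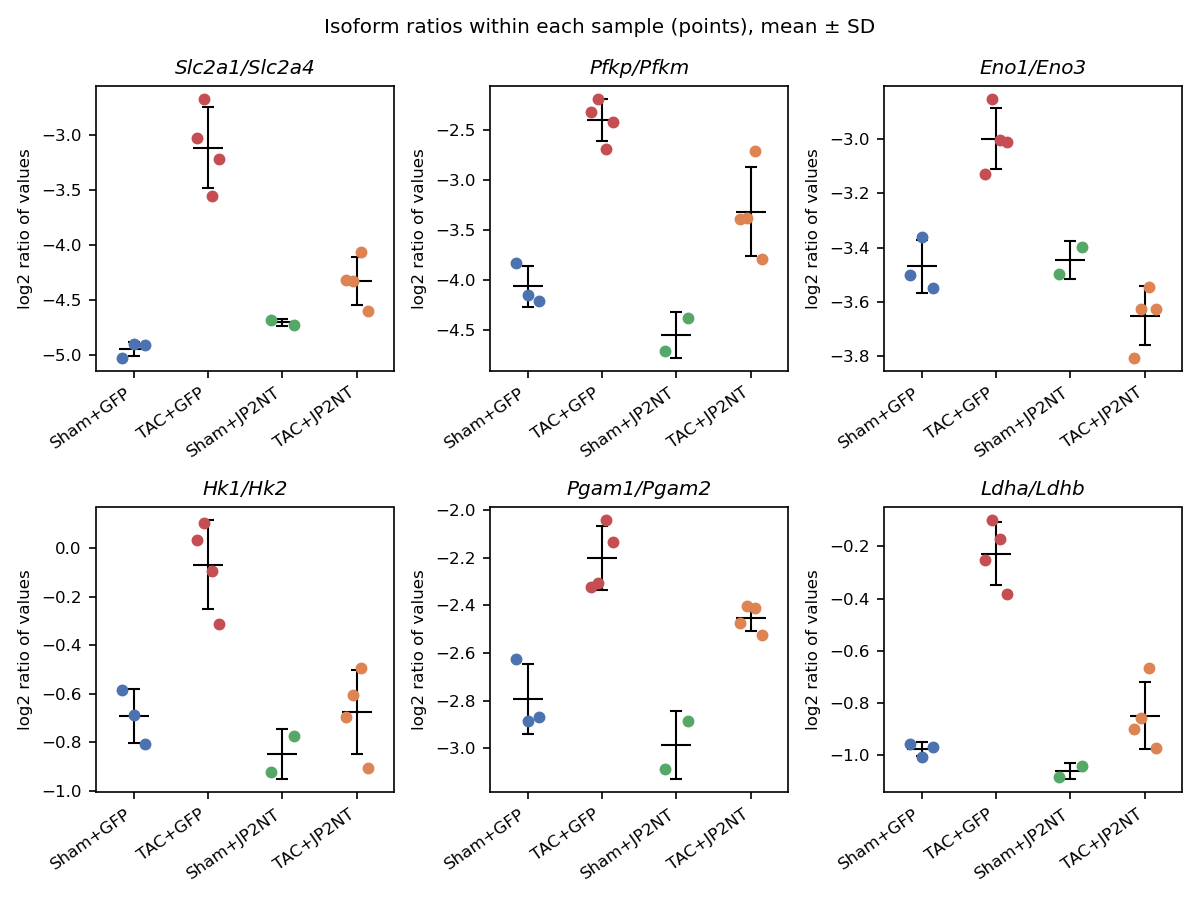
Log2 ratio of the normalised values + 1 of 6 isoform pairs (y axes) in each sample (points), by group (x axes), with the mean and SD as bars. In every panel the TAC+GFP samples lie above all Sham+GFP and all TAC+JP2NT samples.

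With JP2NT in both arms, overload was accompanied by 4 higher and 17 lower members. These 21 of 35 between TAC+JP2NT and Sham+JP2NT stand beside 31.9% of all genes tested, with 16.1% higher and 15.8% lower. The median log2 fold change was -0.30 over the members and 0.0038 over all genes. The 4 higher members were Pfkp, Pfkfb2, Pgam1 and Slc16a3, with Slc16a3 at 1.45 ± 0.31, adjusted p = 0.00340 and Pfkp at 0.67 ± 0.19, adjusted p = 0.0156. Both calls were lost without Sham+JP2NT replicate 3, which leaves 1 averaged sample in that group, with 1.01 (adjusted p = 0.0861) for Slc16a3 and 0.79 (adjusted p = 0.0501) for Pfkp. The lower members included Pdp2 at -1.51 ± 0.16, adjusted p = 3.54e-05, Pfkfb1 at -1.76 ± 0.29, adjusted p = 0.000563 and Slc2a4 at -0.75 ± 0.090, adjusted p = 8.15e-05. Slc2a1, higher in TAC+GFP than in Sham+GFP, was -0.37 here and not called (adjusted p = 0.110); it was called with only the compared groups in the fit (adjusted p = 0.0255) and without TAC+GFP replicate 2 (-0.39, adjusted p = 0.0438) and TAC+GFP replicate 3 (-0.37, adjusted p = 0.0298). Values did not overlap for 28 members, 6 higher and 22 lower, beside 49.6% of all genes. Leaving out single libraries gave 16 to 23 called members.

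In sham hearts, limma called no member between the vectors, and none of the 13212 genes tested (0%). At an unadjusted p under 0.05 there were 3 members (Pfkfb3, Pgam1 and Pdp1) and 581 genes, 4.40% of those tested. Values did not overlap for 19 of 35 members, 7 higher and 12 lower with JP2NT, where 30.2% of all genes had no overlap between these groups of 2 and 3. In Sham+JP2NT the marker sums were 1280630.0 to 1303310.0 for cardiomyocytes, below the Sham+GFP range, and 13370.0 to 13505 for fibroblasts, 8645 to 9875 for red blood cells and 10354 to 14819 for atrial markers, each above the Sham+GFP range. Their part in the comparisons that use Sham+JP2NT was not tested. The 3 members differed by 0.54, -0.35 and 0.27 in log2, and the 95% interval for Slc2a1 was -0.095 to 0.68 around 0.29. Whether the effect of overload itself differed between the vectors was tested as an interaction. Limma called 0 of 35 members and 10 of 13212 genes (0.0757%, with 0.0378% higher and 0.0378% lower), and 9 members and 1505 genes had an unadjusted p under 0.05. The interaction of Slc2a1 was -1.21 ± 0.23, adjusted p = 0.0818 and that of Eno1 was -0.52 ± 0.10, adjusted p = 0.0818. With Eno1b summed into it, the Eno1 interaction was -0.28 (adjusted p = 0.320). Slc2a1 passed the threshold without TAC+GFP replicate 3 (-1.37, adjusted p = 0.00314). For Slc2a1, Eno1 and every other member, an overload call under one vector and none under the other does not show that the effects differ.

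Genes that surround the pathway were counted list by list, beside 23.3% of all genes higher and 24.8% lower in TAC+GFP against Sham+GFP. Among targets of hypoxia-inducible factors outside glycolysis, 8 of 15 tested genes were higher and 1 lower. The largest changes were those of Car9, a carbonic anhydrase, at 2.86 (adjusted p = 0.000146), Ddit4, an inhibitor of mTOR signalling, at 2.27 (adjusted p = 7.66e-05), and Ankrd37 at 1.16 (adjusted p = 0.00165). Among transcription factors of the pathway, 3 of 13 tested genes were higher and 6 lower, with Myc at 1.31 (adjusted p = 0.000699), Hif1a at 1.07 (adjusted p = 0.000261) and Mlxipl, the glucose-responsive factor ChREBP, at -0.69 (adjusted p = 0.00154). In the hexosamine pathway, which branches off at fructose 6-phosphate and feeds protein glycosylation, 5 of 7 tested genes were higher and 0 lower. They include its entry enzymes Gfpt2 at 0.60 (adjusted p = 0.0275) and Gfpt1 at 0.40 (adjusted p = 0.00114), and the transferase Ogt at 0.58 (adjusted p = 0.000117). In glycogen metabolism 5 of 18 tested genes were higher and 6 lower. Phkg1, a phosphorylase kinase subunit, was at -1.56 (adjusted p = 0.000440), Ppp1r3c, which targets a phosphatase to glycogen, at 1.42 (adjusted p = 4.77e-08), and the muscle phosphorylase Pygm at -0.98 (adjusted p = 4.85e-07). In the pentose phosphate pathway 0 of 8 tested genes were higher and 4 lower, with Rpia at -0.52 (adjusted p = 0.00854), Taldo1 at -0.36 (adjusted p = 0.00173) and H6pd at -0.34 (adjusted p = 0.0105). Among polyol and fructose genes 0 of 3 tested genes were higher and 2 lower, Sord at -0.76 (adjusted p = 3.19e-05) and Khk at -0.49 (adjusted p = 0.00760).

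In the rest of the pyruvate dehydrogenase complex with pyruvate carboxylase, 1 of 7 tested genes were higher and 5 lower in overload under GFP. Pdpr, which regulates the phosphatase, was at 1.06 (adjusted p = 1.10e-05), pyruvate carboxylase Pcx at -0.50 (adjusted p = 4.33e-05), and Dlat, the E2 subunit, at -0.50 (adjusted p = 1.44e-05). Of genes of insulin and AMPK signalling to glucose uptake, 3 of 14 tested genes were higher and 4 lower. Txnip, an inhibitor of glucose uptake, was at -0.95 (adjusted p = 0.00105), Tbc1d4, which controls GLUT4 traffic, at -0.92 (adjusted p = 3.78e-06), and Pik3ca at 0.64 (adjusted p = 0.000139).

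With JP2NT in TAC hearts, 1 of the 102 tested genes on 10 such lists was higher and 11 were lower, beside 2.75% of all genes higher and 3.4% lower. Of the hypoxia-inducible factor targets, 0 of 15 were higher and 4 lower, and the largest differences were those of the peptide hormone Adm at -0.79 (adjusted p = 0.0345), the mitophagy receptor Bnip3 at -0.73 (adjusted p = 0.00910) and Ndrg1 at -0.53 (adjusted p = 0.00705). Of the transcription factors 1 of 13 was lower, Hif1a at -0.61 (adjusted p = 0.0461). Of the insulin and AMPK genes 1 of 14 was higher, Tbc1d4 at 0.42 (adjusted p = 0.0144). Lower were 2 of 18 glycogen genes, Ppp1r3c at -0.42 (adjusted p = 0.00678) and the branching enzyme Gbe1 at -0.26 (adjusted p = 0.0350), and 1 of 8 pentose phosphate genes, Pgls at -0.27 (adjusted p = 0.0392). Lower, too, were 2 of 10 other isoforms, Tigar at -0.26 (adjusted p = 0.0290) and Bsg, the partner of the lactate carriers in the membrane, at -0.22 (adjusted p = 0.0473), and Lias, a lipoic acid synthase, at -0.28 (adjusted p = 0.0319). No gene was called in the hexosamine list (7 tested), the polyol list (3) or the list of other carriers and hexokinases (7).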

How the data were processed

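Polyadenylated RNA of mouse ventricles was measured in 14 libraries. Reads were processed by the authors with FastQC 1.0.0, STAR 2.6.1a and Salmon on mm10, per the submitters' processing notes. For the annotation and the scaling, the software is not given in the sources used here. What the authors deposited is a signal, namely gene counts that the authors scaled, apart for each vector as the values show, and not whole numbers. The plan assumed this and fitted no count model.

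The libraries Sham+JP2NT 1 and 2 were nearly as alike as counting noise allows (variance ratio 1.34 over abundant genes, against 3.78 to 34.7 in 17 other pairs) and were averaged, giving 13 samples. Values were rescaled jointly by trimmed means of M-values (30% of ratios and 5% of levels trimmed), 1 was added and log2 taken. Genes that reached 10 in 3 samples or more were tested two-sided with limma-trend (limma 3.58.1, R 4.3.3), with 1 spread for all groups (9 residual and 5.71 prior degrees of freedom). Isoform ratios had exact permutation tests. The median SD of log2 values over members was 0.055 for Sham+GFP and 0.052 for Sham+JP2NT against 0.094 for TAC+GFP and 0.14 for TAC+JP2NT, so the shared spread is too small for some genes in TAC hearts. Whether every library is a separate mouse is not in the labels, so p-values measure only the spread between these samples. The tests were checked on simulated data that had the same setting of spread for all genes and groups and no outlying library. That check does not cover the unequal spread of these groups.

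The members and lists were chosen with earlier results of these data known. All members are accounted for, those called in either main comparison with their values; from each further list at most 3 called genes with the largest change are named, and some results of these lists are not reported here. Alternatives were other scalings, pseudocount and filter, spread per group, fits of the compared groups, a replicate block, averaging of TAC replicates 1 and 2, and leaving out each library; summing Eno1 and Eno1b was chosen after seeing the data. Gene positions and exon lengths are from GENCODE M21 (GRCm38) and promoters from RefSeq.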

Additional observations from a re-analysis of the deposited data

Results flagged for a closer look

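In 7 of 82 groups of 4 samples, 1 sample of a member or isoform ratio lay so far from the others that its gap to the nearest exceeded the 95% critical value of Dixon's test, which chance gives in about 1 of 20 groups. In TAC+GFP these were Slc2a4 in replicate 1, at 4071 against 3806 for the nearest sample, a gap of 0.837 of the range, and Mpc1 in replicate 3, at 7014 against 5768 for the nearest sample, a gap of 0.993 of the range. In TAC+JP2NT, replicate 3 stood apart in 3 genes, with Hk1 at 2481 against 2242 for the nearest sample, a gap of 0.833 of the range, Pfkp at 1707 against 1063 for the nearest sample, a gap of 0.873 of the range, and Pdk4 at 9186 against 5099 for the nearest sample, a gap of 0.941 of the range. Replicate 4 stood apart in Pfkm, at 13391 against 11162 for the nearest sample, a gap of 0.961 of the range, and in Tpi1, at 12810.0 against 11957 for the nearest sample, a gap of 0.901 of the range. Replicate 4 is also the TAC+JP2NT library that lay nearest to the sham libraries over all genes.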

How the results depend on the processing

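No result tried here changed its direction past the threshold. Over members and alternatives, 3867 single-gene results stayed on their side of the threshold, 87 lost a call and 41 gained one. Between TAC+JP2NT and TAC+GFP, 11 called members became 4 with the compared groups alone, 4 with TAC replicates 1 and 2 averaged, and 6 to 15 with single libraries left out. Over all genes, 812 calls became 181, 158 and 270 to 1077 under the same settings, 412 with a spread per group and 1417 with the values as deposited. For overload, leaving out single libraries gave 19 to 24 called members under GFP and 16 to 23 under JP2NT. The interaction, with 0 called members, had 2 with a spread per group, 2 with 14 separate libraries and no replicate block, and 0 to 1 with single libraries left out, where 1 came without TAC+GFP replicate 3. Between the sham groups it was 0 throughout.

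The replicate numbers do not pair the samples: of 19 same-numbered pairs across groups, the correlation of deviations ran from -0.17 to 0.076, and 1 of 14 libraries correlated best with its own number. With the replicate as a block over 14 libraries, called members were 25 and 21 for overload under GFP and JP2NT, 13 for JP2NT in TAC hearts, 0 in sham hearts and 2 for the interaction, against 24, 23, 12, 0 and 2 without the block.

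With Eno1 and Eno1b summed, the log2 ratio to Eno3 differed by 0.58 in overload and -0.53 with JP2NT. With single libraries left out, the ratio differences in overload and with JP2NT ran 1.68 to 1.97 and -1.35 to -1.06 for Slc2a1 to Slc2a4, 1.58 to 1.77 and -1.11 to -0.76 for Pfkp to Pfkm, 0.42 to 0.53 and -0.69 to -0.60 for Eno1 to Eno3, 0.57 to 0.70 and -0.69 to -0.53 for Hk1 to Hk2, 0.54 to 0.68 and -0.29 to -0.20 for Pgam1 to Pgam2 and 0.71 to 0.80 and -0.68 to -0.58 for Ldha to Ldhb; with 3 samples left in a group some of these sizes cannot reach a p under 0.05. Low members such as Slc16a3 and Pdk3, with the fewest reads, are the least precise by counting.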

Other observations

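Around the pathway, overload with JP2NT in both groups (TAC+JP2NT against Sham+JP2NT, beside 16.1% of all genes higher and 15.8% lower) can be set beside the account under GFP. Of the hypoxia-inducible factor targets 6 of 15 tested genes were higher and 1 lower, Car9 at 2.28 (adjusted p = 0.00451), Ddit4 at 1.93 (adjusted p = 0.00188) and P4ha1, a collagen prolyl hydroxylase, at 0.60 (adjusted p = 0.0138). Of the transcription factors 0 of 13 tested genes were higher and 5 lower, with Mef2d at -0.54 (adjusted p = 0.000684) and Esrra, a regulator of oxidative metabolism, at -0.43 (adjusted p = 0.00191). In the hexosamine pathway 4 of 7 tested genes were higher and 0 lower, with Gfpt2 at 0.67 (adjusted p = 0.0426), Gnpnat1 at 0.64 (adjusted p = 0.00774) and Ogt at 0.42 (adjusted p = 0.00637). In glycogen metabolism 4 of 18 tested genes were higher and 7 lower, with Phkg1 at -1.51 (adjusted p = 0.00323), Ppp1r3c at 1.16 (adjusted p = 3.97e-06) and Pygm at -0.84 (adjusted p = 3.54e-05).

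In the rest of the pyruvate dehydrogenase complex 1 of 7 tested genes were higher and 4 lower, Pcx at -0.60 (adjusted p = 0.000124), Pdpr at 0.54 (adjusted p = 0.0103) and Dlat at -0.38 (adjusted p = 0.000950). Of the insulin and AMPK genes 3 of 14 tested genes were higher and 3 lower, with Txnip at -1.12 (adjusted p = 0.00199), Akt2 at -0.51 (adjusted p = 0.000393) and Tbc1d4 at -0.46 (adjusted p = 0.00507). Of pentose phosphate genes 0 of 8 tested genes were higher and 4 lower, and of polyol genes 0 of 3 tested genes were higher and 2 lower.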
